A study of Arabidopsis thaliana with 14 samples.

Results

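The micropylar endosperm of Arabidopsis thaliana seeds was set against 5 other seed compartments. The comparison rests on the 2 arrays titled micropylar endosperm, of 14 arrays in the series, and on 10 arrays of the embryo proper, the cellularized endosperm, the chalazal endosperm, the chalazal seed coat and the general seed coat, with 2 arrays each. For each probe set the mean of the micropylar arrays was compared with the mean of the 5 other group means, and 2 arrays of whole seeds stood outside this contrast. The micropylar and whole-seed arrays carry later sample numbers than the other 10 arrays. In the main contrast, any difference between these sets of arrays cannot be told apart from a difference between tissues. Every sample had the genotype Ws-0 and was taken at the linear-cotyledon stage, with embryos 175 ± 11 µm long, from siliques of 1.6 to 1.9 cm on plants 38 to 46 days old grown under continuous light. Tissue was cut by laser microdissection from paraffin sections, and each Affymetrix ATH1 array was hybridised with cDNA amplified from 2 to 5 ng of RNA. The labels call replicates biological without naming the plants behind them, and the spread that p-values measure is the one between these samples, which may be technical. They do not say how the borders of a compartment were drawn. In such dissected tissue, a lower signal from fewer cells of a type and one from less RNA per cell cannot be told apart.

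The endosperm is the tissue beside the embryo that takes up, stores and passes on nutrients from the mother plant. Its micropylar part lies at the end of the seed where the pollen tube entered and encloses the young embryo, the cellularized part lines the rest of the seed, and the chalazal part sits where the maternal vascular strand ends. In the mature seed the micropylar endosperm covers the root tip, and expansins, xyloglucan-modifying enzymes and mannanases are known for loosening cell walls in such seed tissues during germination.

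EXPA4, XTH32 and AMY1 were given as markers of this compartment, and their summed signal was 9301 and 9782 on the micropylar arrays, between 112 and 754 in the other 5 compartments, and 953 and 2523 in whole seeds. All 3 are among the largest rises of the comparison itself, so their sum describes the arrays and does not check the label. A description field of the micropylar arrays speaks of whole seeds, while title and source name micropylar endosperm, and the design text names the micropylar endosperm more than once and omits the chalazal endosperm. The arrays were used as titled, and markers of other tissues were read as well. Of 27 embryo markers 3 could be tested (YAB3, YAB5 and BBM, transcription factors of organ and embryo identity), and their summed signal was 126 to 184 on the micropylar arrays, 2978 to 3369 on the embryo arrays, 19.4 to 165 on the other 8 compartment arrays and 959.9 to 1001 in whole seeds. YAB5 was called lower (-1.80, SE 0.58, adjusted p = 0.0358), a call that ended under 6 alternatives. Of 17 seed coat markers 2 could be tested, DFR and BAN, which make flavonoid precursors of seed coat tannins, and neither was called (0 of 2 also at an unadjusted p under 0.05). Their summed signal was 720.1 to 917 on the micropylar arrays, 18.2 to 30.3 on the embryo arrays, 77.0 to 168 on the cellularized endosperm arrays, 1006 to 1047 on the chalazal endosperm arrays and 7185 to 15576 on the seed coat arrays. DFR stood at 742 and 544 on the micropylar arrays and BAN at 175 and 176, above both arrays of the embryo and of the cellularized endosperm, and the part of seed coat RNA in the results was not tested.

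Levels below are signal intensities as deposited. Changes are differences in log2(signal + 16), given with their standard error (SE), and a probe set was called at a limma p adjusted by the Benjamini-Hochberg method under 0.05 and a change of at least 2-fold. Because 16 is added to each signal, fold changes of genes with low signals are understated. Of 15951 tested probe sets, 2878 (18.0%) were called, 1794 higher (11.2%) and 1084 lower (6.80%), and the median change over all of them was -0.0038. With 1 micropylar array left out these counts fell, to 781 higher and 365 lower without replicate 1 and to 886 and 537 without replicate 2. Arrays scaled to equal medians gave 1542 and 1234, and a median change of -0.10. Both micropylar arrays lay above all 10 other compartment arrays for 800 of those called higher (5.02% of all tested) and below them for 270 of those called lower (1.69%). Without regard to the call these shares were 5.96% and 2.54%. Micropylar replicates correlated at r = 0.912 across probe sets, which are not independent replicates. Correlations of micropylar with other arrays were 0.809 to 0.825 for the cellularized endosperm, 0.718 to 0.754 for the embryo and 0.466 to 0.495 for the chalazal endosperm. The ratio of the 3' to the 5' GAPDH probe set cannot tell RNA integrity from effects of the amplification. It stood at 6.42 and 3.59 in the micropylar samples, 13.6 and 8.34 on the chalazal endosperm arrays and 5.33 to 7.87 on the other 8 arrays of the contrast. Its part in the results was not tested.

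The compartments nearest to the rises were the embryo and the cellularized endosperm. Among the 1794 probe sets called higher, the embryo had the highest mean of the other 5 for 679 (37.8%, against 24.0% of all tested). The cellularized endosperm had it for 627 (34.9%, against 2392 of all 15951 tested) and the chalazal endosperm for 115 (6.41%, against 25.0%). The micropylar mean was itself the highest of the 6 compartments for 1190 (66.3%, against 13.9% of all tested). In the remainder of the 1794 at least 1 compartment stood above it. Among the 1084 called lower, the chalazal endosperm was highest for 418 (38.6%, against 25.0% of all tested). The chalazal seed coat was highest for 310 of these (28.6%, against 18.5%). The micropylar mean was the lowest of the 6 for 686 (63.3%, against 12.6% of all tested). These shares describe means that share the micropylar arrays and carry no test.

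Among the tested expansins and xyloglucan endotransglucosylases the largest rise was that of EXPA4, an expansin, a class of protein that loosens cell walls. Its signal was 6967 and 5873 on the micropylar arrays, 489 and 170.0 in the embryo proper, 336 and 252 in the cellularized endosperm, 51.4 and 82.2 in the chalazal endosperm, 79.9 and 58.8 in the chalazal seed coat, 258 and 371 in the general seed coat and 784 and 2389 in whole seeds. No compartment array overlapped with the micropylar ones, and the change was 5.12 (SE 0.46, adjusted p = 9.7e-07). XTH32, a xyloglucan endotransglucosylase, stood at 809 and 886 on the micropylar arrays and between 1.43 and 78.0 on the other 10, a change of 4.09 (SE 0.69, adjusted p = 0.00039). In whole seeds XTH32 was low as well, at 56.2 and 4.78. XTH32, like EXPA9, ROXY2, AT4G30650 and AT5G43000 below, passed the filter on low signals (at or above the array's median on at least 2 of 14 arrays) through the micropylar arrays alone, as 49 tested probe sets did, of which 43 were called higher, so that such genes had to differ.

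Expansins did not move as one. Of 19 with a probe set that names them alone, 11 passed the filter on low signals, 4 were called higher and 2 lower, and their median change was 1.21, against 11.2% higher, 6.80% lower and a median near 0 over all tested probe sets. Of the 4, EXPA4 was a given marker and EXPA9 passed the filter through the micropylar arrays alone, so the count is not read as support. EXPB1, at 1185 and 1076 on the micropylar arrays and at most 822 on any other compartment array, rose by 2.92 (SE 0.50, adjusted p = 0.000464). EXPA9 (496 and 236, at most 152 elsewhere) rose by 3.51 (SE 0.78, adjusted p = 0.00356), a call that ended without micropylar replicate 1 (adjusted p = 0.113). EXPA20 (581 and 1459, at most 350.5 elsewhere) rose by 2.69 (SE 0.51, adjusted p = 0.00105), a call that ended without micropylar replicate 2 (adjusted p = 0.0762). In all of the 4 called higher, both micropylar arrays lay above the 10 others, which was so for 800 of the 1794 probe sets called higher. As EXPA4 and EXPA9 are among the 4, this is not read as support either. EXPA15 had its highest mean in the embryo (1528, against 263 in the micropylar endosperm), and EXPB3 likewise (585 against 95.9). Neither was called, at 1.21 and -0.33.

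The members called lower were both expansin-like A genes. EXLA1 stood at 1077 and 986 on the micropylar arrays, between 103 and 330.1 on the embryo and cellularized endosperm arrays, and between 5079.6 and 28305 on the chalazal and seed coat arrays. The micropylar level thus lay between those groups, and the change was -1.33 (SE 0.33, adjusted p = 0.0077). EXLA2 was at 2.3 and 4.31, against 11.7 to 308 elsewhere. Its embryo arrays, at 20.3 and 11.7, were near the added 16 as well, so no order between those groups is read, and the change against the mean of the 5 was -2.42 (SE 0.59, adjusted p = 0.0071). Both calls ended without either micropylar array, with adjusted p of 0.0771 and 0.0958 for EXLA1 and 0.0929 and 0.0648 for EXLA2. Of the xyloglucan endotransglucosylases 3 were tested, XTH32 was called, and XTH19 (0.21) and EXGT-A3 (-0.50, highest in the general seed coat at 6601) were not. The listed endo-beta-mannanases had no probe set naming 1 gene and are not analysed here.

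**Figure D1:**
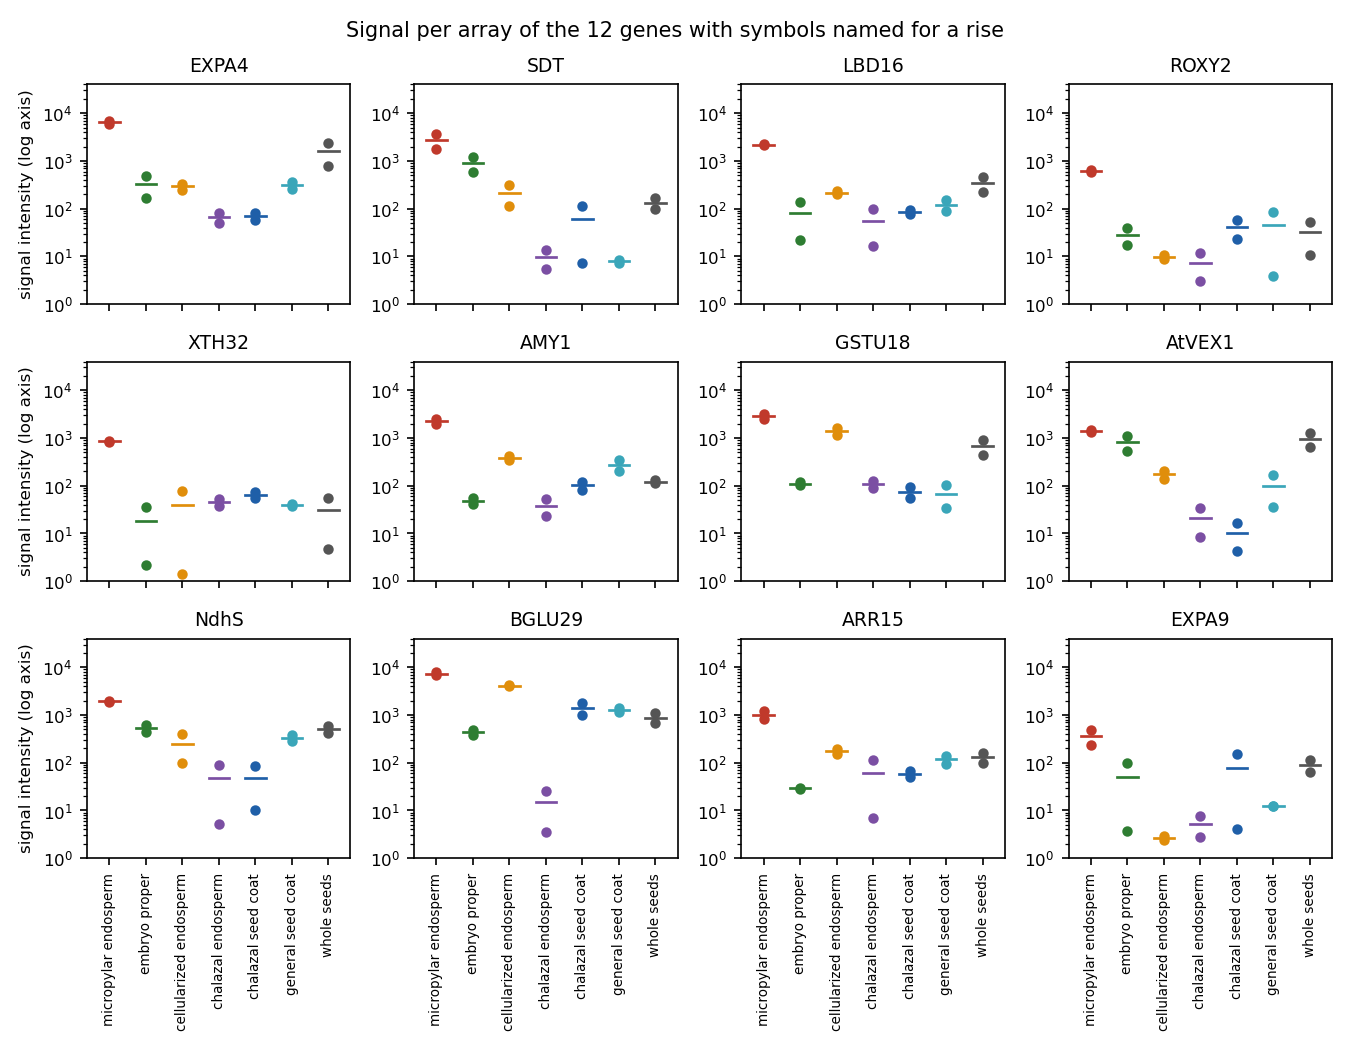
Signal intensity on a log axis of the 12 genes with symbols named for the largest rises, in 7 groups of 2 arrays; points are arrays and short lines are group means. On both micropylar arrays each gene lies above all 10 arrays of the other 5 compartments, while SDT, AtVEX1 and NdhS come nearest in the embryo proper and GSTU18 and BGLU29 in the cellularized endosperm.

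AMY1 was the starch-degrading gene with the largest rise. It encodes an alpha-amylase, which cuts the chains of starch, and its signal was 2005 and 2542 on the micropylar arrays, 338 and 424 in the cellularized endosperm, 200.1 and 342 in the general seed coat and at most 122 on the remaining compartment arrays. The change was 4.09 (SE 0.46, adjusted p = 6.57e-06), and 2.53 (SE 0.59) from the cellularized endosperm. In whole seeds AMY1 stood at 113 and 129.5, lower by 4.05 (adjusted p = 0.000428) than in the micropylar endosperm. Of 22 listed genes of starch breakdown 3 could be tested, and 3 were called higher, against 11.2% of all tested probe sets. AMY1, among these 3, was given as a marker of this compartment, so the count is not read as support. PWD, a kinase that phosphorylates starch, changed by 1.51, and DPE1, which rebuilds maltotriose into longer chains, by 1.4. The embryo came near to both, with differences of 0.44 (SE 0.50) and 0.09 (SE 0.44). Their calls ended without either micropylar array (adjusted p of 0.0668 to 0.168 for PWD and 0.0646 to 0.117 for DPE1), that of DPE1 also without the chalazal endosperm (0.095), and a second probe set of PWD had a change of -0.85 (adjusted p = 0.419).

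Genes of starch synthesis were measured in the same tissue. SBE2.2, a starch branching enzyme, stood at 6320.1 and 5757 on the micropylar arrays and at most 4739.5 on the other 10, a change of 1.93 (SE 0.26, adjusted p = 3.76e-05). APL4, a large subunit of ADP-glucose pyrophosphorylase, had 446 and 471, within the range of the cellularized endosperm (at most 473), and changed by 2.05 (SE 0.60, adjusted p = 0.0226). The APL4 call ended without either micropylar array (adjusted p = 0.168 and 0.162), without the chalazal endosperm (0.0533) and with a pseudocount of 1 (0.0722). APL3, another large subunit, was highest in the chalazal seed coat (314) and was not called (-1.54).

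SWEET genes, which encode sugar transporters, fell into separate patterns. Of 8 tested, 3 were called higher and 2 lower, with a median of 0.80, against 11.2% higher and 6.80% lower of all tested probe sets. AtVEX1, also known as SWEET5, stood at 1362 and 1474 on the micropylar arrays and 1109 and 545 in the embryo, with at most 208 on the remaining 8, and changed by 3.77 (SE 0.54, adjusted p = 8.37e-05). SWEET7 stood at 1302 and 1874 and at most 1016 elsewhere, a change of 2.31 (SE 0.47, adjusted p = 0.00186) whose call ended without micropylar replicate 2 (adjusted p = 0.0654). SWEET11, a sucrose exporter, was called higher at 3.11 (SE 0.51, adjusted p = 0.000292), with 4165 and 5868 on the micropylar arrays, yet the cellularized endosperm was above it at 9126 and 13294. SWEET10, at 9.59 and 2.55, was low on the micropylar arrays and had a mean of 14508 in the chalazal seed coat, a change of -3.16 (SE 0.71, adjusted p = 0.00386). Its call ended without micropylar replicate 2 (adjusted p = 0.0723), and that of SWEET2 (-1.82) ended under 17 alternatives. SAG29, also known as SWEET15, SWEET8 and SWEET1 were not called, at 0.92, 0.68 and 0.01.

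The photosynthesis genes of the nucleus that could be tested were called higher, but they were few of those listed. Of 91 genes in 5 lists (photosystems I and II, light harvesting, electron transport and ATP synthase, the chloroplast NADH dehydrogenase-like complex, and the Calvin cycle), 15 had a probe set naming them alone, 13 passed the filter and these 13 were called higher, against 11.2% of all tested probe sets. Their changes ran from 1.54 to 3.62 with a median of 2.34. Both micropylar arrays lay above all 10 others for 8 of the 13, and for 800 of the 1794 probe sets called higher. NdhS, a subunit of the NADH dehydrogenase-like complex that feeds electrons back into the photosynthetic chain, had the largest rise, at 1947 and 1899 on the micropylar arrays against at most 610.4 elsewhere.

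The embryo had the highest mean of the other 5 compartments for 12 of these 13 genes. The median difference from the embryo was 0.32 (range -0.07 to 1.87), from the cellularized endosperm 1.13, from the general seed coat 1.63, from the chalazal seed coat 3.55 and from the chalazal endosperm 4.37. PSB27, a protein that helps assemble photosystem II, stood above the embryo, with 2647 and 3262 on the micropylar arrays, 1238 and 913 in the embryo and 779.8 and 427 in the cellularized endosperm. PSBY, a small subunit of photosystem II, and LHCB4.3, a light-harvesting antenna protein, differed from the embryo by 1.06 (SE 0.31) and 1.4 (SE 0.45). PRK, the Calvin cycle kinase that regenerates the substrate of carbon fixation, overlapped with the embryo, at 12701 and 18783 against 11376 and 14225, and the cellularized endosperm lay just below, at 12518 and 11274. It was low in the chalazal endosperm (404 and 657) and the chalazal seed coat (719.9 and 342), and its change against the mean of the 5 was 2.45 (SE 0.27, adjusted p = 6.88e-06). Differences from the embryo were also small for RCA, rubisco activase (-0.07, SE 0.47), SBPASE, a Calvin cycle phosphatase (-0.05, SE 0.50), and ATPC1, a subunit of the chloroplast ATP synthase (0.00, SE 0.39). PSAN, a photosystem I subunit, lost its call without micropylar replicate 1 (adjusted p = 0.0545) and ATPC1 without replicate 2 (0.0509). Of the 13, 3 were called higher than whole seeds, as were 2.88% of all tested probe sets and 327 of the 1794 called higher in the main contrast.

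Genes of chlorophyll synthesis had higher means in the embryo. Of 21 listed, 7 were tested and 3 were called higher (11.2% of all tested probe sets were). These were PORB, which reduces protochlorophyllide in light (2.58, SE 0.37, adjusted p = 7.81e-05), CHLM, a methyltransferase of the pathway (2.18, SE 0.40, adjusted p = 0.000815), and CHLI2, a subunit of magnesium chelatase (1.61, SE 0.42, adjusted p = 0.0108). The CHLI2 call ended without either micropylar array (adjusted p of 0.0577 and 0.186) and without the chalazal endosperm (0.0527). All 7 had a higher mean in the embryo than in the micropylar endosperm, with differences of -1.54 to -0.13. GSA1 and HEMB1, which act early in the pathway, had changes of -0.13 and -0.08 and were not called.

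Genes encoded in the plastid genome, a list added after values were seen, were high as well. All 69 with a probe set passed the filter. Of these, 51 were called higher (73.9%) and 0 lower (also 0 lower at an unadjusted p under 0.05 by limma). Of all tested probe sets 11.2% were called higher and 6.80% lower. Changes of the 69 ran from 0.26 to 2.73, with a median of 1.29. The micropylar mean was the highest of the 6 compartments for 54, which was so for 13.9% of all tested probe sets. Both micropylar arrays lay above all 10 others for 41, which was so for 5.96%. Calls fell on every functional class, 12 of 20 photosystem genes, 5 of 6 of the cytochrome b6f complex, 5 of 6 of the ATP synthase, 7 of 10 of the NADH dehydrogenase-like complex, 13 of 15 ribosomal proteins, 2 of 4 RNA polymerase subunits and 7 of 8 others. Across the alternatives tried, 43 to 57 of the 69 were called. The chalazal endosperm did not stand apart here as it did for nuclear photosynthesis genes, with a median difference of 1.31, against 0.59 from the embryo, 1.14 from the cellularized endosperm and 2.06 from the chalazal seed coat. The embryo had the highest mean of the other 5 for 52 of the 69, the chalazal endosperm for 12 and the general seed coat for 5. The medians were not tested against each other.

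petL, a small subunit of the cytochrome b6f complex, had the largest change of the plastid genes, with 5930.3 and 3512 on the micropylar arrays, 1509 and 1373 in the embryo, 1228 and 489.6 in the cellularized endosperm and 274 to 1165 on the other 6. No array overlapped, and the change was 2.73 (SE 0.37, adjusted p = 4.35e-05). ndhE, a subunit of the NADH dehydrogenase-like complex, stood at 23211 and 20248 and at most 8149.9 elsewhere, a change of 2.28 (SE 0.21, adjusted p = 1.22e-06). It was also called above each of the other 5 compartments taken singly, 1.47 (SE 0.28) above the embryo (adjusted p = 0.0439). rpoC1 and rpoB, subunits of the plastid RNA polymerase, had higher means in the embryo, at 11079 against 8328 and 7008 against 4157. Of the mitochondrial nad and ccb genes, a list also added after values were seen, 0 of 11 tested were called by limma in either direction (2 higher and 2 lower at an unadjusted p under 0.05), with a median of 0.08. Of all tested probe sets 18.0% were called in either direction. With 11 genes the count is not read as a result about the list, and the 2 organelles were not tested against each other. For nad1 the probe set of highest signal had 0.13, and another of its 5 probe sets had -1.29 (adjusted p = 0.000422).

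**Figure D2:**
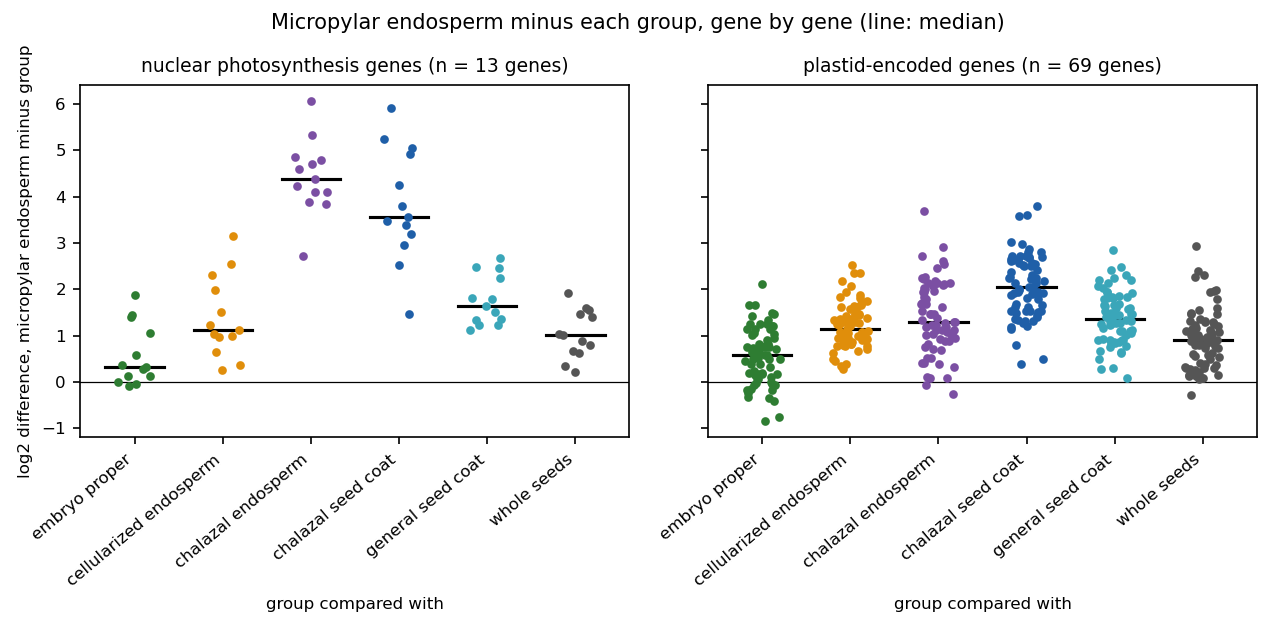
Log2 difference of the micropylar endosperm from each other group, for 13 nuclear photosynthesis genes and 69 plastid-encoded genes; points are genes and lines are medians. Nuclear genes lie close to the embryo proper (median 0.32) and far above the chalazal endosperm (median 4.37), while plastid-encoded genes are spread more evenly over the groups (medians 0.59 to 2.06 in the 5 compartments).

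Regulators of hormone response gave single large rises. LBD16, a transcription factor induced by auxin and known from lateral root initiation, stood at 2133 and 2258 on the micropylar arrays, 199 and 230.0 in the cellularized endosperm and between 16.3 and 152 on the other 8. The change was 4.35 (SE 0.57, adjusted p = 3.52e-05), with no overlap. The other 5 tested auxin genes were not called, among them YUC6 and YUC2 of auxin synthesis (1.14 and 0.22) and the auxin-conjugating GH3.3 (-0.86), which stood at 6.51 and 63.2 against 749 in the embryo. ARR15, a type-A response regulator induced by cytokinin, stood at 1189.6 and 807, at most 192 elsewhere, and changed by 3.54 (SE 0.59, adjusted p = 0.000343). RR16, a regulator of the same type, was highest in the cellularized endosperm (1789, against 369) and was not called (0.10). The 3 gibberellin receptor genes had -0.19, -0.82 and -1.30, with 0 called by limma and 0 under an unadjusted p of 0.05. Called higher were thus 1 of 6 auxin, 1 of 2 cytokinin and 0 of 3 gibberellin genes. Of all tested probe sets 11.2% were called higher and 6.80% lower, and such small counts are not read as results about these lists. Genes of abscisic acid metabolism had no probe set naming 1 gene and are not analysed here.

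Other genes with symbols completed the largest rises. SDT, which attaches sinapoyl groups to spermidine, had 3679 and 1807 on the micropylar arrays, 582 and 1209 in the embryo and at most 320.2 on the other 8, and changed by 4.85 (SE 0.62, adjusted p = 2.85e-05). The embryo was thus the nearest compartment, at 1.60 (SE 0.81), while SDT was 96.8 and 165 in whole seeds. ROXY2, a glutaredoxin known from anther development, stood at 643 and 599 and at most 87.3 elsewhere, a change of 4.14 (SE 0.68, adjusted p = 0.000307). GSTU18, a tau-class glutathione transferase, and BGLU29, a member of the beta-glucosidase family, rose by 4.06 and 3.55 (adjusted p = 6.05e-06 and 1.76e-06). For both the cellularized endosperm came near, with differences of 1.05 (SE 0.58) and 0.82 (SE 0.45).

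Genes known to the array only by a locus code made up 7702 of the tested probe sets, of which 733 were called higher (9.52%) and 552 lower (7.17%). For the 1204 with a symbol these were 196 (16.3%) and 69 (5.73%), and the symbols include the plastid genome. The largest locus-coded rise was AT4G38410, with 4826 and 4494 on the micropylar arrays, 94.2 and 25.3 in the embryo, 81.1 and 32.1 in the cellularized endosperm, 45.9 and 26.6 in the chalazal endosperm, 24.7 and 5.01 in the chalazal seed coat, 3.26 and 16.2 in the general seed coat and 192 and 51.3 in whole seeds. Both micropylar arrays were far above every other array, and the change was 6.72 (SE 0.61, adjusted p = 1e-06). AT3G22540 reached the highest signal of these rises, with 22229 and 23503 against 47.5 to 1698 on the 10 other compartment arrays and 1932 and 1495 in whole seeds, a change of 6.01 (SE 0.51, adjusted p = 5.95e-07). AT1G09370 stood at 5169 and 3655, with 90.3 and 384 in the chalazal endosperm and at most 135 on the other 8, a change of 5.80 (SE 0.58, adjusted p = 2.4e-06). The annotation used here gives no gene name or function for the locus-coded genes named for a rise or a fall, so none is stated.

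AT2G23400, AT5G38980, AT2G34315, AT4G30650, AT1G47980, AT4G35720 and AT5G43000 were low in each of the other 5 compartments. Their micropylar arrays ran from 685 (AT4G30650, whose other array was 1560.2) to 3503 (AT5G38980), and no other compartment array exceeded 198 (AT1G47980, in the general seed coat). The changes ran from 4.62 for AT5G43000 to 5.55 for AT2G23400. AT1G04645, AT4G33666, AT5G51490 and AT4G31060 had some signal in another compartment. AT1G04645 was at 11643 and 9731, with 1201 in the chalazal endosperm and 1027 in the general seed coat, and changed by 4.96 (SE 0.72, adjusted p = 8.7e-05). AT5G51490 was at 4939 and 3483, with 1047 in the general seed coat, and changed by 4.71 (SE 0.45, adjusted p = 1.57e-06). AT4G33666 and AT4G31060 changed by 4.77 and 4.67. AT3G59850 was also high in the cellularized endosperm, with 3134 and 4462 on the micropylar and 1857 and 2664 on the cellularized arrays, a difference of 0.75 (SE 0.76) beside a change of 5.15 (SE 0.59, adjusted p = 7.79e-06) against the mean of the 5. None of the 15 locus-coded rises lost its call under any of the 25 alternatives in which it was tested (4, AT4G38410 among them, were left out by the stricter filter), and 13 were called higher than whole seeds.

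**Figure D3:**
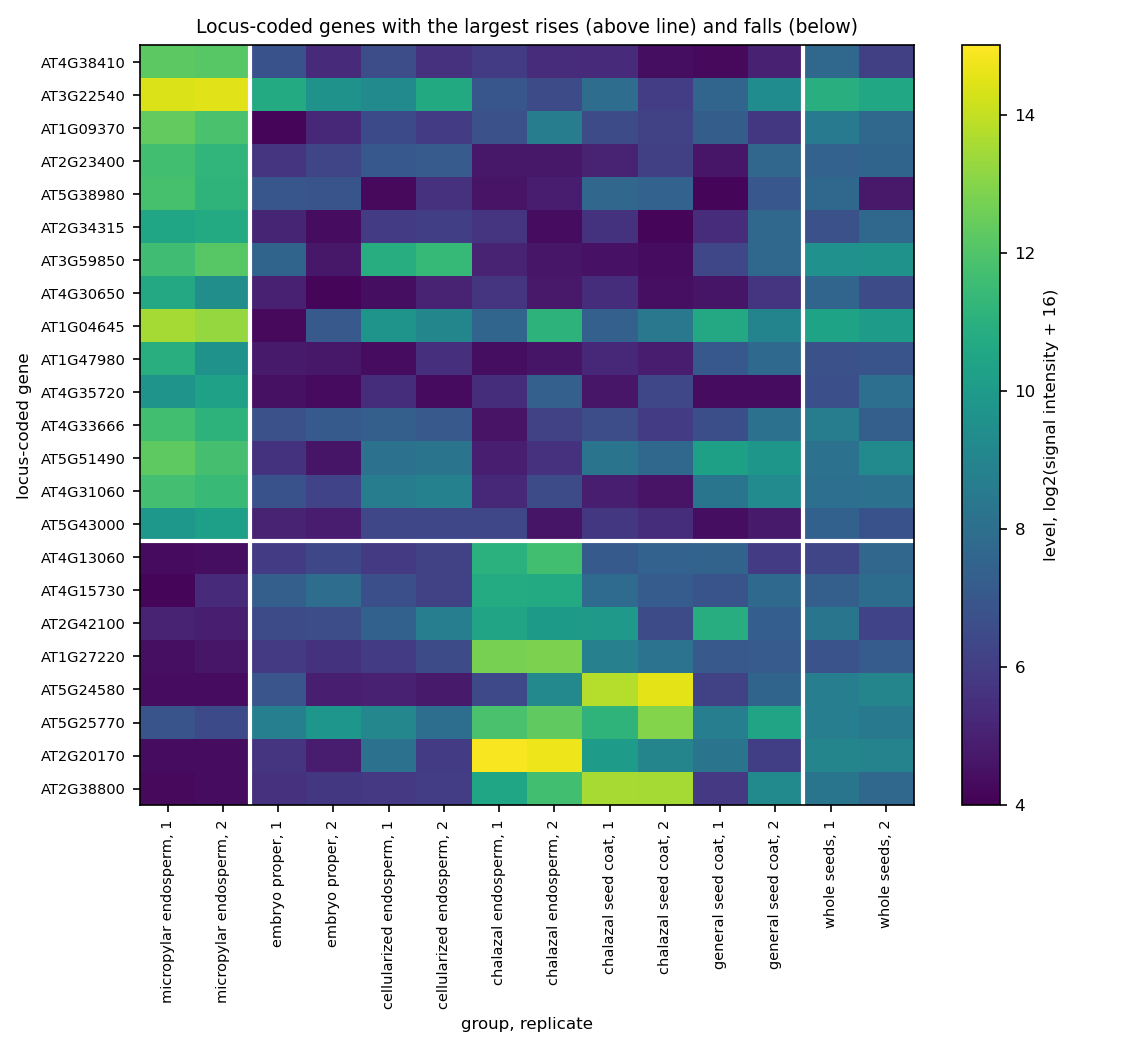
Level, as log2(signal intensity + 16), of the 15 locus-coded genes with the largest rises and the 8 with the largest falls on each of the 14 arrays. The rises are bright in the first pair of columns, and AT3G59850 also in the cellularized endosperm; the falls are dark there and brightest in the chalazal endosperm or the chalazal seed coat.

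The largest falls were mostly of genes with their highest level at the chalazal pole. Of the 16 genes named for a fall, 9 had their highest mean in the chalazal endosperm and 4 in the chalazal seed coat. These shares were 38.6% and 28.6% of the 1084 called lower, and 25.0% and 18.5% of all tested. A fall against a mean of 5 is larger where 1 compartment is very high, so the counts carry no test. For 9 of the 16 both micropylar signals were under 16, the value added before logs were taken. UBC31, a ubiquitin-conjugating enzyme, stood at 1.12 and 2.79 on the micropylar arrays, 27.8 and 47.3 in the embryo, 74.6 and 19.8 in the cellularized endosperm, 29507 and 30679 in the chalazal endosperm, 4191 and 613 in the chalazal seed coat and 394 and 121 in the general seed coat. The change against the mean of the 5 was -4.83 (SE 0.59, adjusted p = 1.6e-05), while the embryo and the cellularized endosperm were low too, with differences of -1.55 (SE 0.76) and -1.67 (SE 0.76). AT2G20170 ran in the same way, at 4.32 and 4.68 on the micropylar and 30457 and 26944 on the chalazal endosperm arrays, a change of -4.41 (SE 0.58, adjusted p = 3.52e-05). AT2G38800 stood at 3.23 and 4.62, with 12037 and 11642 in the chalazal seed coat, a change of -4.44 (SE 0.62, adjusted p = 5.93e-05). It was low too in the embryo (31.9 and 39.4) and the cellularized endosperm (41.5 and 48.4). The differences from these were -1.37 (SE 0.795) and -1.61 (SE 0.795). ZIP6, a metal transporter, had 48.3 and 9.20, 8108 in the chalazal and 2938 in the general seed coat, and changed by -3.85 (SE 0.43, adjusted p = 6.3e-06). Its levels were low too in the embryo (54.5 and 75.4) and the cellularized endosperm (62.8 and 82.3). From these ZIP6 differed by -0.996 (SE 0.551) and -1.13 (SE 0.551).

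ATG8G, of the autophagy machinery, stood at 112 and 203 on the micropylar arrays and between 260.0 and 3699 on the others, and changed by -2.47 (SE 0.35, adjusted p = 6.91e-05). AT5G24580, AT5G25770, AT1G27220, AT4G15730 and AT4G13060 had changes of -3.65 to -3.15. From the cellularized endosperm AT5G24580 differed by -0.53 (SE 0.84). AT5G25770 kept a measurable level, at 98.5 and 72.5, and its other compartments ran from 236 to 7918. JAG, a transcription factor of lateral organ growth, was the fall with its highest mean in the embryo, 3.26 and 4.02 against 325, and changed by -2.58 (SE 0.57, adjusted p = 0.00356).

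Of the 16 calls of a fall 6 ended under an alternative. That of JAG ended without micropylar replicate 1 (adjusted p = 0.0595), and that of HLL, a mitochondrial ribosomal protein needed in ovules (-2.63), without replicate 2 (0.202). Calls of PLIM2a, an actin-binding LIM protein (-3.36), GT2, a DNA-binding protein (-2.45), and AT2G42100 (-3.45) ended without either array, with adjusted p of 0.0525 to 0.0591, 0.137 to 0.181 and 0.079 to 0.081. GSTU15, a tau-class glutathione transferase (-2.61), had a mean of 7511 in the chalazal endosperm, and its call ended without that group (0.0956). From the cellularized endosperm GSTU15 differed by -0.48 (SE 0.635). GT2 differed by -0.52 (SE 0.94) from the cellularized and by -0.24 (SE 0.94) from the chalazal endosperm.

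Seed filling and other lists had few tested members. Called higher were 1 of 3 genes of fatty acid synthesis and oil assembly and 1 of 3 of seed storage and maturation. In the hypoxia list it was 1 of 2, and 11.2% of all tested probe sets were called higher. Such small counts, and the 0 of 4 cell division genes below, are not read as results about the lists. OLEO3, an oleosin of oil bodies, was called higher at 3.70 (SE 0.28, adjusted p = 2.64e-07), but its signal of 15473 and 18837 overlapped with the embryo (16223 and 16211), and the cellularized endosperm was near (12279 and 10358). It was low in the chalazal endosperm (107 and 86.7) and the chalazal seed coat (12.7 and 30.4). The fatty acid thioesterases FaTA and FATB had 0.76 and 0.02 and were not called. EEL, a bZIP factor of seed maturation, was called at 1.19 (SE 0.27, adjusted p = 0.00425), which ended without micropylar replicate 1 (adjusted p = 0.0912), and bZIP44 and BZIP53 had -0.48 and -0.70. PDC2, a pyruvate decarboxylase of fermentation, was called at 1.69 (SE 0.39, adjusted p = 0.00516), which ended without micropylar replicate 2 (0.119), and AT3G10040, listed in RefSeq under the synonym HRA1, a regulator of the hypoxia response, had 0.72. Of 4 cell division genes 0 were called by limma (1 at an unadjusted p under 0.05), with the Aurora kinase genes AUR1 to AUR3 at 0.42, 1.25 and -1.01 and PRL, a replication licensing factor, at -0.30. PRL stood at 386 and 588 against 2512 in the embryo and 1620.2 in the cellularized endosperm.

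Of 24 listed regulators of the endosperm and of its border with the embryo, 8 were tested and 2 were called higher, against 11.2% of all tested probe sets. AT1G50650 stood at 11487 and 16951 on the micropylar arrays and 14734 and 22781 in the cellularized endosperm, 1391 and 1872 in the embryo and at most 391 on the other 6, and changed by 4.64 (SE 0.42, adjusted p = 9.91e-07). The micropylar and cellularized arrays overlapped, with a difference of -0.39 (SE 0.54). GSO1, a receptor kinase needed for the embryo's cuticle, had its highest mean in the embryo (1225, against 545), and its call at 2.2 ended without either micropylar array (adjusted p = 0.225 and 0.0787) and without the chalazal endosperm (0.0585). AT5G01075 differed widely between the micropylar arrays, at 840.3 and 85.0, and was not called. AGL91, AGL80 and AGL23, MADS-box genes, had 0.95, 0.33 and -0.61, while IKU1, of the pathway that sets endosperm growth, had -0.53 and MPC -0.16. Listed genes of cutin synthesis had no probe set naming 1 gene and are not analysed here.

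**Figure D4:**
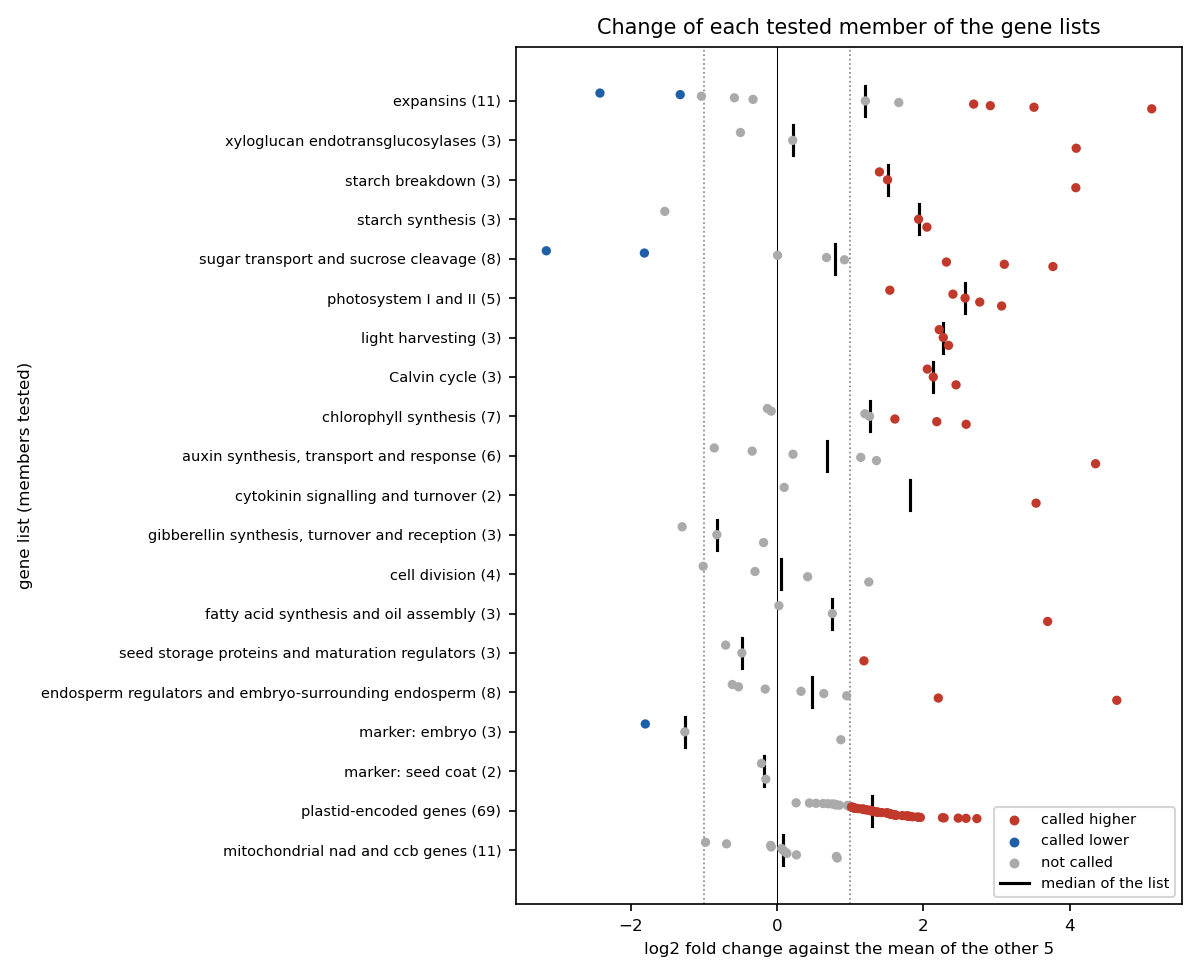
Log2 fold change of each tested member of gene lists, micropylar endosperm against the mean of the other 5 compartments; points are genes (red called higher, blue called lower, grey not called), black lines list medians and dotted lines a 2-fold change. The nuclear photosynthesis lists lie wholly to the right of the 2-fold line, and expansins and sugar transporters are spread over both sides.

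A stricter comparison asked which genes exceeded every other compartment taken singly, by at least 2-fold in all 5 differences and with the largest of the 5 p-values adjusted over all tested. By limma 18 probe sets (0.113%) passed as higher and 0 as lower, while 253 and 47 did at an unadjusted p under 0.05. Of the 18, 11 name 1 gene. For AT4G38410 the smallest of the 5 differences, from the cellularized endosperm, was 6.10 (SE 0.79) with adjusted p = 0.00563, and for EXPA4 it was 4.3 (SE 0.60), from the general seed coat, with adjusted p = 0.00563. AT4G30650, AT1G09370, AT2G23400, AT3G22540 and AT4G33666 had smallest differences of 4.01 to 4.80. AT2G22420, AT5G44360 and AT5G18310, outside the largest rises, had 3.46 (SE 0.66), 3.12 (SE 0.55) and 2.63 (SE 0.45), and ndhE has been given above. AT5G18310 stood at 10579 and 16699 and at most 2978 elsewhere, AT5G44360 at 3239 and 3514 and at most 407, and AT2G22420 at 2625 and 4374 and at most 532.

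This count was small and unsteady. It was 0 without either micropylar array or without embryo replicate 2, 1 without cellularized endosperm replicate 2, 7 without cellularized endosperm replicate 1, 8 without embryo replicate 1, 9 without general seed coat replicate 1 and 11 without chalazal seed coat replicate 2. It was 102 when the cellularized endosperm group was left out and 31 when the chalazal endosperm group was. LBD16 (3.26, SE 0.74, adjusted p = 0.124), AMY1 (2.53, SE 0.59, adjusted p = 0.142), ROXY2 (3.57, SE 0.87, adjusted p = 0.194) and XTH32 (3.42, SE 0.89, adjusted p = 0.251) had both arrays above all 10 others but did not pass (smallest differences). These differences were from the cellularized endosperm for LBD16 and AMY1 and from the chalazal seed coat for ROXY2 and XTH32.

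**Figure D5:**
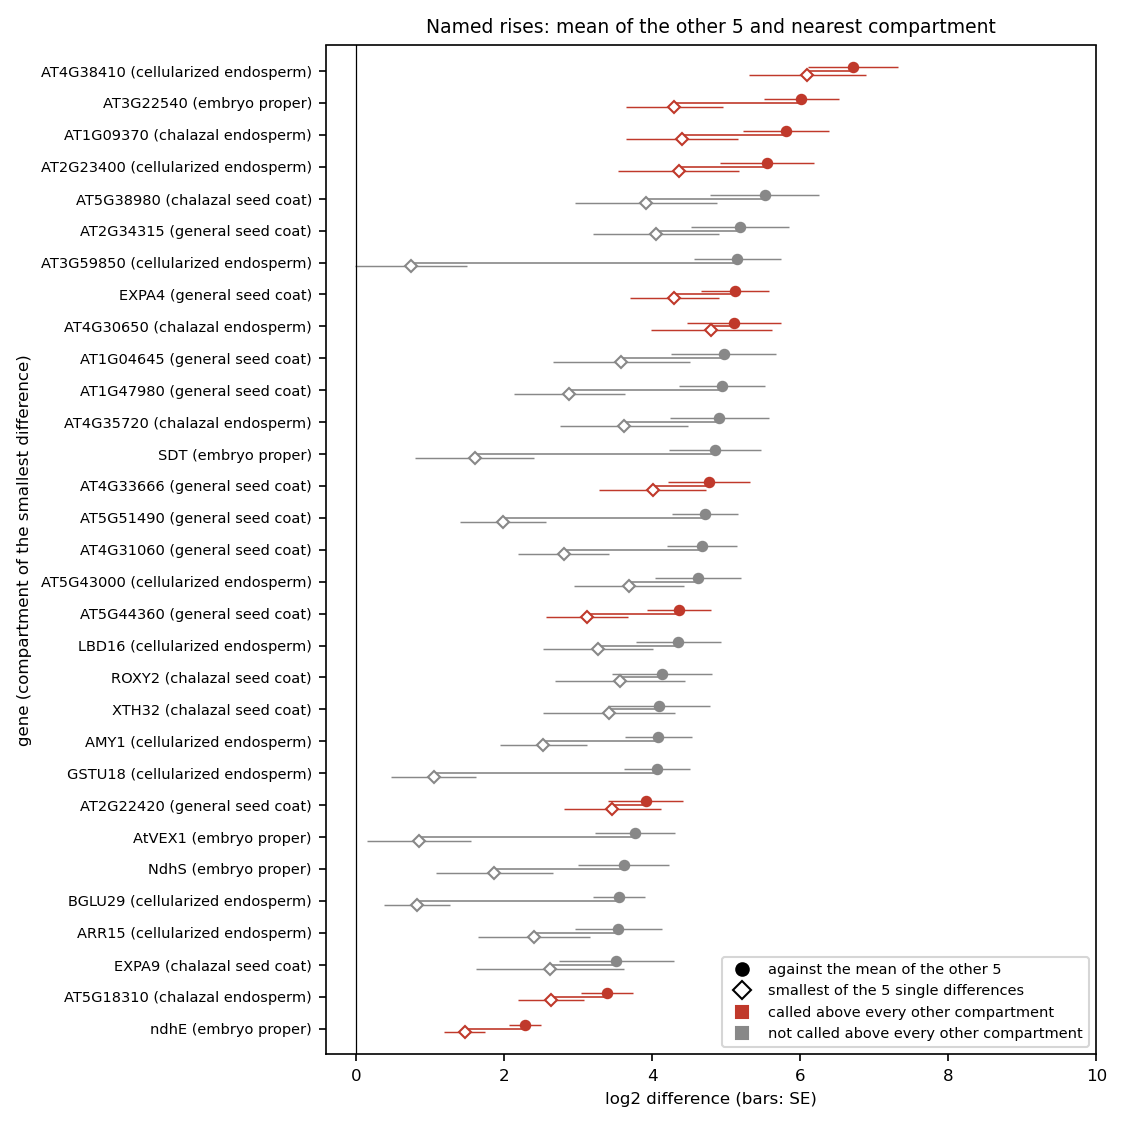
For the genes named for a rise and those called above every other compartment, the log2 difference of the micropylar endosperm from the mean of the other 5 compartments (filled circles) and the smallest of its 5 differences from single compartments, with that compartment beside the gene (open diamonds), with SE. AT3G59850, SDT, GSTU18, AtVEX1 and BGLU29 have diamonds far to the left of their circles, while AT4G38410 has both to the right of 6.

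Whole seeds contain the micropylar endosperm among all other compartments and were compared separately. Here 459 probe sets (2.88%) were called higher in the micropylar endosperm and 788 (4.94%) lower. The split depended on scaling, with 774 higher and 497 lower when array medians were made equal, 522 and 698 after quantile normalization, and a median change over all tested of -0.10 as deposited and 0.21 with equal medians. The counts were 111 and 316 without micropylar replicate 1, 148 and 420 without micropylar replicate 2, 245 and 329 without whole-seed replicate 1, and 152 and 361 without whole-seed replicate 2. Of the 1794 probe sets called higher against the other compartments, 327 (18.2%) were also called higher than whole seeds. The micropylar arrays enter both comparisons. Of the 27 genes named for a rise, 22 were called in it. XTH32 differed from whole seeds by 4.48 (SE 0.89, adjusted p = 0.0045), SDT by 4.18 (SE 0.81, adjusted p = 0.00361) and AT4G38410 by 5.30 (SE 0.79, adjusted p = 0.00047). AtVEX1 had 0.66 (SE 0.70, adjusted p = 0.649) and EXPB1 -0.06 (SE 0.65, adjusted p = 0.975), neither called. Of the 69 plastid-encoded genes 25 were called higher than whole seeds.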

How the data were processed

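The authors' deposited values, 1 signal intensity per probe set and array of the Affymetrix ATH1 array, were used as deposited. Per the submitters' processing notes they were made with GCOS, whose version and settings are not given in the sources used here. The mean signal intensity of each deposited array, without the lowest and highest 2% of probe sets, was 500.0 to 500.1, and array medians ran from 106.6 to 183.1. Of 22810 probe sets 64 controls were left out, and 15951 of 22746 at or above their array's median on at least 2 of 14 arrays were tested. In R 4.3.3, limma 3.58.1 was fitted to log2(signal + 16) with 1 mean per group over all 14 arrays and a trend of variance on level (two-sided; adjusted p under 0.05 and at least 2-fold), and was tested on simulated data. Whole seeds enter the spread but not the main contrast. Platform annotation named 1 gene for 13513 probe sets, several for 503 and none for 8794, and 13436 matched RefSeq (TAIR10.1 names).

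Named were, among called genes with both micropylar arrays beyond all 10 others, the 12 largest rises and 8 largest falls with symbols and the 15 and 8 by locus code, the genes furthest above every other compartment, and list members. A gene was read from its probe set of largest mean signal. Members and lists were chosen with earlier results of these data known; plastid, mitochondrial, endoglucanase and tetraspanin lists were added after values were seen. Only the number of arrays, 2 per group, limits precision in a known way. Alternatives were pseudocounts of 1 and 64, other filters, equal medians, quantile normalization, no variance trend, the replicate block, the 12 compartment arrays alone, leaving out the chalazal or cellularized endosperm, and each array left out.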

Additional observations from a re-analysis of the deposited data

How the results depend on the processing

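Of 230 named genes and list members, 147 were called against the mean of the other 5 compartments, 100 kept the call under every one of the 25 alternatives in which they were tested, and 0 changed sign; causes of lost calls were not tested. Probe sets called against that mean numbered 781 to 1894 higher and 365 to 1128 lower when 1 array was left out, and 1443 to 2057 and 906 to 1487 under the other alternatives. Probe sets above every other compartment, 18 as reported, were 0 to 17 with 1 array left out, 3 with a pseudocount of 1, 55 with 64, 8 without the variance trend, 31 without the chalazal endosperm and 102 without the cellularized endosperm. Those below every other, 0 as reported (47 at an unadjusted p under 0.05 by limma), were 0 to 1 with 1 array left out, 1 with a pseudocount of 64, without a filter or with the replicate block, 2 without the chalazal and 4 without the cellularized endosperm. Against whole seeds, 459 higher and 788 lower became 111 to 562 and 316 to 831 with 1 array left out, 774 and 497 with equal medians, and 295 higher without the variance trend. Deviations from group means of arrays that share a replicate number correlated at -0.111 to 0.146 over 21 pairs of groups, so the numbers were not taken to pair samples. The fit with the replicate block gave 1803 higher and 1095 lower in the main comparison, 17 above every other compartment, and 445 higher and 779 lower against whole seeds. With 2 arrays per group, leaving out 1 leaves a lone array assumed to vary like the other groups. Genes whose signals are near or under 16 on both sides have no measurable order.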

Other observations

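Among other gene families, chosen after values were seen, 3 of 11 tested family 9 endoglucanases, enzymes that cut glucan chains in cell walls, were called higher and 1 lower, with a median change of -0.15, against 11.2% higher and 6.80% lower of all tested probe sets. GH9C2 stood at 1121 and 1348 on the micropylar arrays and at most 549 on the other 10 compartment arrays, and changed by 3.16 (SE 0.47, adjusted p = 0.00011). GH9C1 and GH9B8 changed by 3.40 and 3.53, but the cellularized endosperm had higher means for both, at 24728 against 8015 for GH9C1 and 3504 against 2376 for GH9B8. GH9B18, at 9.19 and 6.88, was called at -2.04 (SE 0.67, adjusted p = 0.0398), and this call ended under 10 of the alternatives.

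Tetraspanins, membrane proteins that organize other proteins in membrane patches, gave 5 called higher and 1 lower of 10 tested, with a median of 0.82, against the same 11.2% and 6.80%. TET3 stood at 3658 and 3739 and at most 2964 elsewhere, and changed by 2.51 (SE 0.30, adjusted p = 1.55e-05). TET15 changed by 3.27 (SE 0.45, adjusted p = 5.78e-05), while the embryo was above it at 3919 against 2124, and TET4 by 2.42, with the chalazal endosperm at 5143 against 2772. TET11, at 704 and 473 and at most 244 elsewhere, changed by 2.61 (SE 0.69, adjusted p = 0.0117). Calls of TET11, TET4, TET7 (1.33) and TET8 (-1.86) ended under at least 1 alternative, and across alternatives 2 to 5 tetraspanins were called higher.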
